A study of Mus musculus with 16 samples.

Results

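The genes described here are the replication-dependent histone genes of the mouse, taken as all genes whose symbols start with Hist1h, Hist2h, Hist3h or Hist4h in both deposited count tables. There were 68 such genes among 49585. They were taken by symbol alone, although the set was chosen with earlier results of these data known. By symbol they comprised 6 genes for the linker histone H1, 20 for H2A, 17 for H2B, 12 for H3 and 13 for H4. Of these, 3 are annotated as pseudogenes without a stop codon, namely Hist1h2aj and Hist1h2al (H2A) and Hist3h2bb-ps (H2B). In the GENCODE M21 annotation of the GRCm38 build, 54 lie on chromosome 13, 10 on chromosome 3, 3 on chromosome 11 and 1 on chromosome 6. The annotation holds 70 genes with such symbols, and Hist1h2bh and Hist1h2bm were not analysed here.

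Core histones H2A, H2B, H3 and H4 form the protein spool on which DNA is wound, and H1 binds where the DNA enters and leaves it. The replication-dependent genes supply these proteins while DNA is copied, so their messages are characteristic of cells in S phase. Their mature messages end in a conserved stem-loop, bound by the protein SLBP, in place of a poly(A) tail, although some of these genes can also give a longer polyadenylated transcript, mainly in cells that have left the cycle. Another family of histone genes, the replication-independent variants such as H3f3a, H3f3b and H2afz, is expressed outside S phase as well and makes polyadenylated messages. Granulocyte precursors in the bone marrow divide, whereas mature neutrophils do not.

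RNA was sequenced from cells described as neutrophils sorted from the bones of C57BL/6 mice aged 8 to 12 weeks, in 16 libraries of 4 groups with 4 libraries each. P2KO libraries were labelled Vav:cre-PHD2f/f, a deletion of the oxygen sensor PHD2 (encoded by Egln1) by a Cre recombinase that the Vav promoter drives in blood-forming cells, and P2WT libraries were their wild-type controls. P2H2KO libraries were labelled Vav:cre-PHD2/HIF2ff/ff, a joint deletion of PHD2 and the hypoxia-inducible factor HIF2α (encoded by Epas1), and P2H2WT libraries were the controls of that line. Whether the controls carried Cre or floxed alleles is not given in the sources used here, nor is it stated that each library came from another mouse, so p values measure only the spread between these libraries. The comparisons asked which transcripts differ without PHD2, and which differ when HIF2α is missing too.

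Between 23450746 and 28601284 counts were assigned to genes in a library. Levels are given as CPM, the counts-per-million unit on a library size scaled by TMM (trimmed mean of M values). The mean of Egln1 was 49.5 ± 6.40 CPM (SD, n = 4) in P2KO and 48.6 ± 2.20 in P2WT, and at 53.1 ± 4.39 in P2H2KO and 52.2 ± 2.97 in P2H2WT. Epas1 was at 12.3 ± 8.21 CPM in P2KO and 10.02 ± 1.40 in P2WT, and at 5.65 ± 2.17 in P2H2KO and 3.55 ± 1.02 in P2H2WT. Counts over whole genes do not show a deleted exon, so these levels did not check the genotypes, and P2KO and P2H2KO mean the libraries labelled so. The 12 mature neutrophil markers summed to 32850 to 86122 CPM, with S100a9 at 7754 to 21353. The 12 erythroid markers, genes of red cell precursors such as Hbb-bs, summed to 21549 to 44398 CPM in these libraries of sorted cells. None of either list was at 0 in all libraries. P2H2KO replicate 15 had the lowest summed level of the histone genes and also of the S phase and mitosis lists. P2KO replicate 6 had the lowest erythroid sum and the highest sum of 8 RNAs known to lack a poly(A) tail, 31.4 CPM against 5.82 to 19.7 in the other 15 libraries. In bulk libraries, fewer cells of a type and less RNA per cell cannot be told apart.

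The stem-loop is the feature by which these messages are processed, and 1 site of each form found is shown with 5 bases on either side. The histone stem-loop motif was searched on the sense strand after the stop codon in GENCODE M21 transcripts, with any bases at stem positions 3 and 4 and at the last loop position, the other letters as in the sites shown, and all 6 stem bases paired. Capitals mark the stem-loop of 16 bases, a stem of 6 base pairs closed by a loop of 4 bases. The sites are those of Hist1h1c (chr13:23739507-23739532, plus strand), Hist1h4d (chr13:23581945-23581970, plus strand), Hist1h3c (chr13:23745042-23745067, minus strand), Hist1h4i (chr13:22040961-22040986, minus strand), Hist1h4j (chr13:21735432-21735457, plus strand) and Hist2h2ac (chr3:96220413-96220438, minus strand), all on GRCm38.
Hist1h1c: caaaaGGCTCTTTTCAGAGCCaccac
Hist1h4d: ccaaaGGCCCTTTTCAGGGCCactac
Hist1h3c: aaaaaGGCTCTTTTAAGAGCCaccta
Hist1h4i: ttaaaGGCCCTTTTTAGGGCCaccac
Hist1h4j: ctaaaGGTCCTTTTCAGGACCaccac
Hist2h2ac: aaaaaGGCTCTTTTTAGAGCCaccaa

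The motif followed the stop codon in 42 of the 68 genes (61.8%), at 21 to 58 bases from it (median 31.5). The 68 include the 3 pseudogenes, which had no match. Searched anywhere in a transcript, the motif was held by 49 of all 21901 protein-coding genes of the annotation (0.224%). Of these 49, 44 (89.8%) belong to the 70 annotated histone symbols. The form of Hist1h1c occurred in 24 genes of the H1, H2A, H2B and H3 classes. The form of Hist1h4d occurred in 7 genes, all of them H4. The form of Hist1h3c occurred in 6 genes. The form of Hist1h4i was shared with Hist2h4, that of Hist1h4j with Hist1h4b, and that of Hist2h2ac was found in no other. For 13 genes the annotated transcript ends at the stop codon, so that no match there says only that these letters are not in the annotated transcript. The 26 genes without a match held 34.1% of the summed level of the 68 genes. Among them were the abundant genes Hist1h2bc and Hist2h2be, annotated with 742 and 2192 bases after the stop codon.

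Promoter windows of 250 bases before the RefSeq start (GRCm38.p6) were matched by Entrez gene identifier for 60 of the 68 genes. They are shown for the most abundant gene, Hist1h1c (chr13:23738557-23738806, plus strand), and for 3 of the 4 genes with an unadjusted p under 0.05 in P2KO against P2WT, Hist1h2bl (chr13:21716184-21716433, minus strand), Hist1h4d (chr13:23581318-23581567, plus strand) and Hist1h4k (chr13:21750554-21750803, minus strand). Capitals mark matches, on either strand, to TATAAA (the TATA box), CCAAT, ATTTGCAT (the octamer), AAACACA (a motif known from H1 promoters) and GGTCCG (part of an element known from H4 promoters).
Hist1h1c: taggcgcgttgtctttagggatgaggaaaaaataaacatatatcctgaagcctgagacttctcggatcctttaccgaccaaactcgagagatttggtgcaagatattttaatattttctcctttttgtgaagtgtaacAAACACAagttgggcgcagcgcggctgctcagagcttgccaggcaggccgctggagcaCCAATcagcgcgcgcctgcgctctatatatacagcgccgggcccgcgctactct
Hist1h2bl: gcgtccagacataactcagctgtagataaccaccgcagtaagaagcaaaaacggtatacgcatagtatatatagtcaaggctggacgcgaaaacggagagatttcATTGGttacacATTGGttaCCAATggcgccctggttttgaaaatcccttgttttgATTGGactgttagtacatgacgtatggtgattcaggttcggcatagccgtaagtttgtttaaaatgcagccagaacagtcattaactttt
Hist1h4d: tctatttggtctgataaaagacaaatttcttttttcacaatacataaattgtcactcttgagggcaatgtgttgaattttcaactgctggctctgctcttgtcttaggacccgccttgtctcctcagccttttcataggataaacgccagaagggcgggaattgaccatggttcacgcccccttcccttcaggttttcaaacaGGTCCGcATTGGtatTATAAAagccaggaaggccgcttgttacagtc
Hist1h4k: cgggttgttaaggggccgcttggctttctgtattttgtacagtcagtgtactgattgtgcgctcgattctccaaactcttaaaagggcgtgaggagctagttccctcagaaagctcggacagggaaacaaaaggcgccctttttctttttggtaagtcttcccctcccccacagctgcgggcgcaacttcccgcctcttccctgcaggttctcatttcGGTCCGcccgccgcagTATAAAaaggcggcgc

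CCAAT was present in 49 of the 60 histone windows (81.7%), against 33.8% of all 32851 RefSeq windows of the same length. By class it was in 6 of 6 H1, 18 of 18 H2A, 14 of 14 H2B and 8 of 10 H3 windows, but in 3 of 12 H4 windows. GGTCCG had the opposite distribution, with 9 of 12 H4 windows, 1 of 10 H3 windows and none of the others (16.7% of the histone windows, 6.72% of all). AAACACA was in 5 of 6 H1 windows and in 13.3% of all histone windows, against 6.25% of all windows. ATTTGCAT was in 7 of 18 H2A and 6 of 14 H2B windows and in no other class (21.7%, against 1.6% of all). TATAAA was in 48.3% of the histone windows and 12.4% of all. Many H2A and H2B genes stand head to head and share a promoter, so these windows are not independent, and a match is a description of the letters and not a bound site.

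Together the 68 genes held 0.0108% to 0.0192% of the counts of a library. Their summed level ranged from 111 to 195 CPM, against 2183 to 2690 CPM for 11 replication-independent histone genes. The 6 members Hist1h2aa, Hist1h2ba, Hist1h2bq, Hist1h2br, Hist2h2aa1 and Hist2h3c1, had no count in any library, which allows up to 0.128 CPM each in the shallowest library (3 counts, counting error only). This limit does not hold for Hist1h2bq, Hist1h2br, Hist2h2aa1 and Hist2h3c1 if reads matching several genes were dropped, since 0% to 11.3% of their 50-base stretches are unique. Hist1h2aa and Hist1h2ba are known as testis genes, and they are named here after their values were seen. A mean under 1 CPM was found for 45 genes and one of at least 5 CPM for 6.

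**Figure D1:**
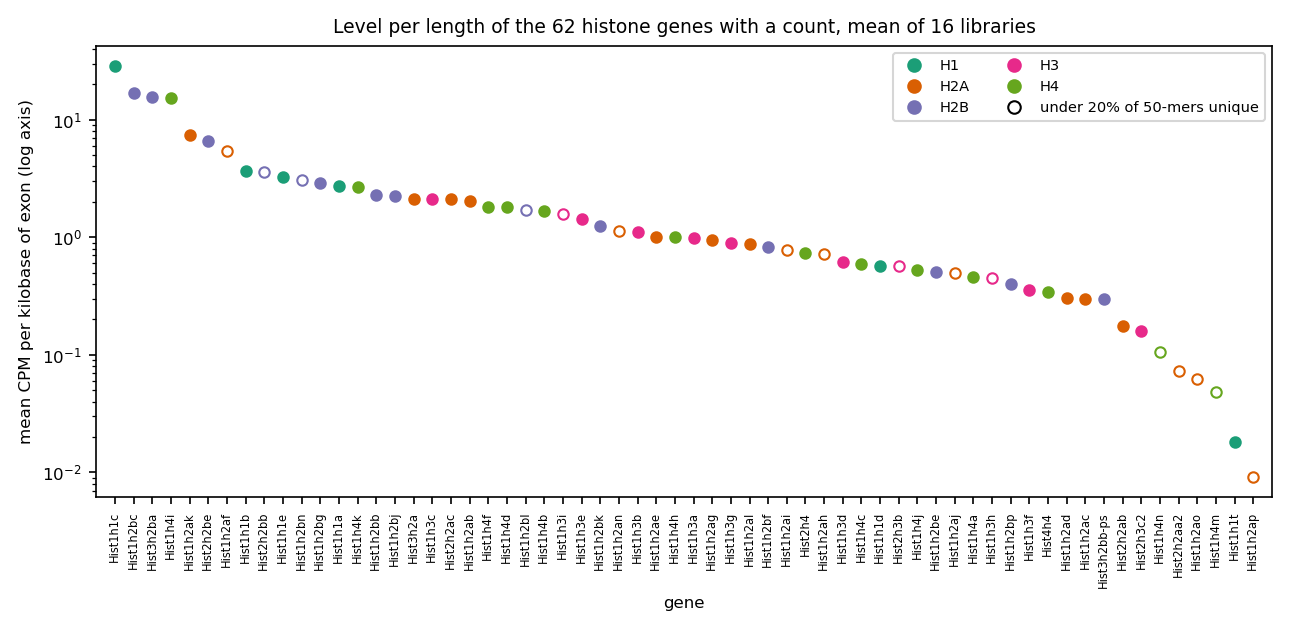
Mean level of the 62 histone genes with at least 1 count, as CPM per kilobase of exon on a log axis, over 16 libraries. Each point is a gene, coloured by histone class, and open points have under 20% of their 50-base stretches unique to the gene. Hist1h1c leads at 28.6 CPM per kilobase, followed by Hist1h2bc, Hist3h2ba and Hist1h4i between 15.4 and 16.7.

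Of the summed level of the 68 genes, H1 genes held 37.8%, H2B genes 36.0%, H4 genes 12.2%, H2A genes 9.71% and H3 genes 4.24%. The leading 5 genes held 64.5%, namely Hist1h1c, Hist1h2bc, Hist2h2be, Hist1h4i and Hist3h2ba. Among the linker histones, which compact the nucleosome chain, Hist1h1c was at a mean of 44.6 CPM and 28.6 CPM per kilobase. Hist1h1b was at 3.66 CPM per kilobase, Hist1h1e at 3.26 and Hist1h1d at 0.571, the last over an annotated exon length of 7425 bases. Hist1h1t, a testis gene, was at 0.0182 CPM per kilobase.

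The H2A gene with the highest level per length was Hist1h2ak at 7.37 CPM per kilobase, and Hist3h2a was at 2.11. In the H2B class, which pairs with H2A in the nucleosome, Hist1h2bc was at 16.7 CPM per kilobase, Hist3h2ba at 15.7 and Hist2h2be at 6.61. The H3 class, whose tails carry many of the known chromatin marks, was led by Hist1h3c at 2.11 CPM per kilobase. The median of the H3 genes was 0.760 CPM per kilobase, near H2A (0.746) and H4 (0.729) and below H2B (1.71) and H1 (2.99). Among H4 genes, which encode the partner of H3, Hist1h4i stood at 15.4 CPM per kilobase, ahead of Hist1h4k at 2.70. In the H1, H2B and H4 classes the leading genes thus stood well above the rest, as the plot of levels per kilobase shows, and in the H3 class none did.

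Genes annotated with at least 150 bases after the stop codon numbered 27 and held 82.6% of the summed level. The leading 5 genes, with 64.5%, were all among the 27. Another 38 genes had fewer such bases, and the 3 pseudogenes had no annotated stop codon. Per length the order was the other way, with a median of 0.594 CPM per kilobase for the 27 genes and 1.05 for the 38. A polyadenylation signal (AATAAA or ATTAAA) in the last 50 annotated bases was found in 17 genes, which held 59.3%. Their median was 0.528 CPM per kilobase, against 0.954 for the 51 genes without the signal. The sources used here do not say whether polyadenylated RNA was selected, only that total RNA and a standard Illumina protocol were used, so the part of selection in these levels was not tested. Among 8 RNAs without a poly(A) tail, the most abundant, Rn7sk, was at 4.49 to 24.8 CPM.

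**Figure D2:**
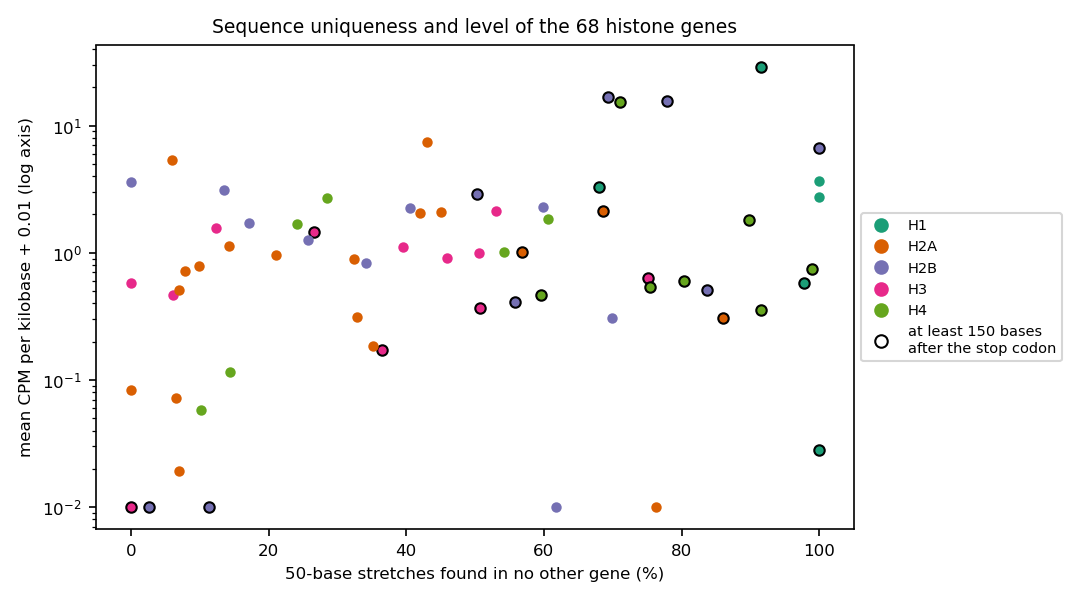
Share of each gene's 50-base stretches that occur in no other annotated gene (x axis, percent) against its mean CPM per kilobase plus 0.01 (y axis, log) for the 68 histone genes, coloured by class. Outlined points have at least 150 annotated bases after the stop codon, and the 5 most abundant genes all lie at 69.4% or more.

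Histone coding sequences are near copies of each other, and reads that match several genes can be dropped or assigned to any of them. For 20 genes under 20% of the 50-base stretches were found in no other gene, and these 20 held 4.92% of the summed level with a median of 0.180 CPM per gene. The 5 most abundant genes had 69.4% to 100% of their stretches unique. The levels of genes such as Hist1h2bl (17.2% unique), Hist1h2an (14.2%) and Hist1h2ah (7.87%) are uncertain for this reason. Where along the genes the reads fell was not measured. In addition, exons of 26 members overlap exons of another gene, all 20 H2A genes among them, and the use of strand in counting is not given.

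The comparison of P2KO with P2WT asked what differs without PHD2, and no histone gene passed the test. Fitted values were nevertheless positive for 41 of the 44 members that had enough counts to be tested, with a median log2 fold change of 0.30, against 57.8% positive and a median of 0.02 over all 13734 genes tested. The members were measured in the same libraries, so their signs are not independent of each other. Between replicates of a group, the median log2 CPM of these members had an SD of 0.24. In the edgeR quasi-likelihood test 0 members had an adjusted p under 0.05 (0.0437% of all genes did), and DESeq2 also gave 0. At an unadjusted p under 0.05 there were 4 members (3.49% of all genes), all higher in P2KO, and the smallest adjusted p was 1. The other 24 members had too few counts.

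Summed over the 68 genes, the P2KO libraries were at 177 (replicate 1), 171 (5), 148 (6) and 157 (9) CPM, and the P2WT libraries at 130 (10), 157 (3), 152 (4) and 124 (7). The groups overlapped, since P2KO replicate 6 lay within the P2WT range. Means were 163 ± 13.1 and 141 ± 16.2 CPM (SD, n = 4). By class, the mean was 60.9 ± 6.50 CPM in P2KO against 53.4 ± 8.52 in P2WT for H1, and 15.5 ± 1.52 against 13.9 ± 1.64 for H2A. For H2B it was 58.0 ± 4.83 against 50.9 ± 4.60, for H3 7.48 ± 1.66 against 5.75 ± 1.02, and for H4 21.3 ± 1.98 against 16.7 ± 2.28.

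**Figure D3:**
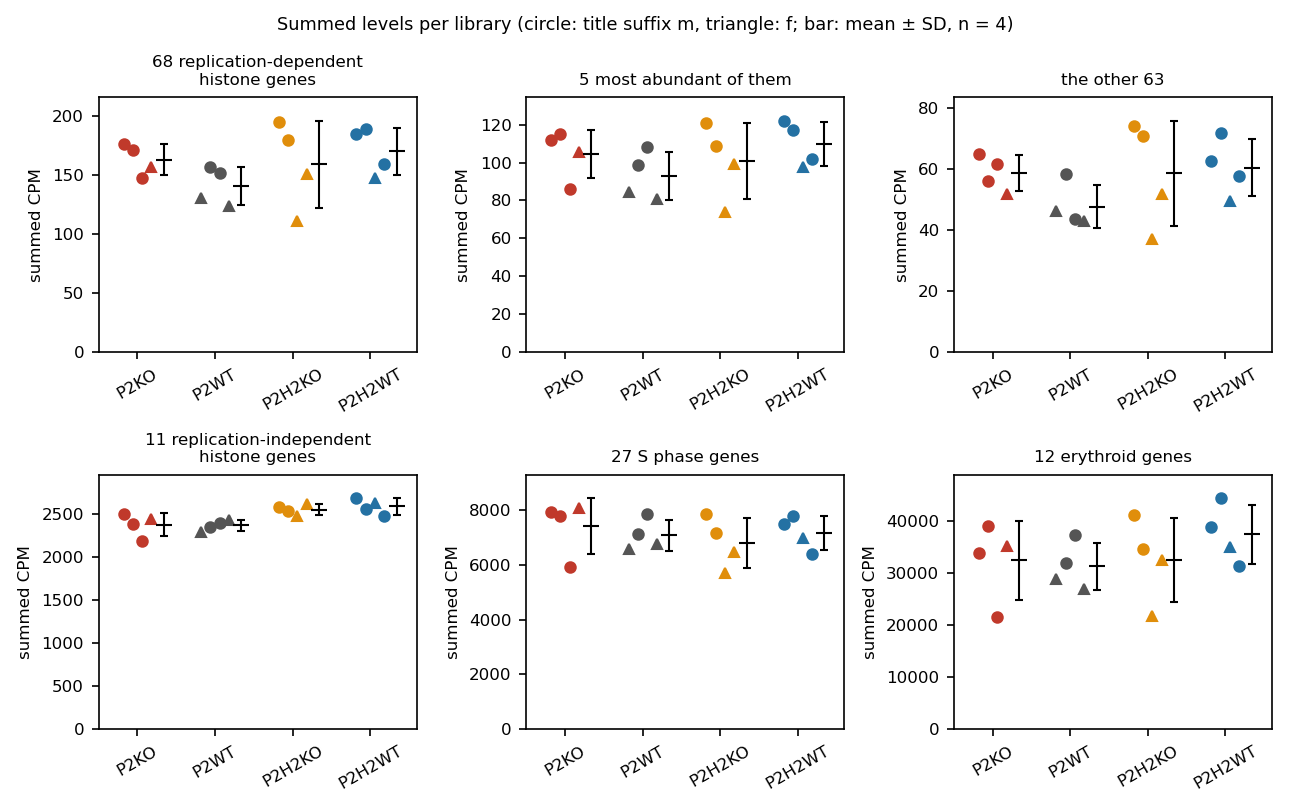
Summed CPM per library (y axes from 0) in the 4 groups for 6 gene sets, with circles for libraries whose title ends in m, triangles for f, and bars for mean ± SD (n = 4). The histone genes range from 111 to 195 CPM with overlapping groups, and P2H2KO replicate 15 is the lowest.

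The H4 gene Hist1h4k was at 1.29, 1.24, 0.987 and 0.691 CPM in P2KO replicates 1, 5, 6 and 9, and at 0.432, 0.563, 0.566 and 0.632 in P2WT replicates 10, 3, 4 and 7. All P2KO libraries lay above all P2WT libraries, and the log2 fold change was 0.95 (SE 0.25, edgeR unadjusted p 0.00410, adjusted p 1). The H2B gene Hist1h2bl was at 0.625, 0.690, 0.8295 and 0.844 CPM in P2KO and at 0.432, 0.413, 0.525 and 0.513 in P2WT. It did not overlap between the groups either, and its fitted log2 value was 0.67 (SE 0.21, edgeR unadjusted p 0.0110, adjusted p 1). Both are genes with no annotated base after the stop codon and low sequence uniqueness, at 28.5% and 17.2%.

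The H4 gene Hist1h4d was at 2.68, 1.69, 3.04 and 2.03 CPM in P2KO and at 1.37, 2.06, 1.17 and 1.46 in P2WT, and the linker histone Hist1h1d at 4.96, 5.04, 4.19 and 3.64 against 3.10, 4.35, 2.79 and 2.41. P2WT replicate 3 reached into the P2KO range for both. Their log2 fold changes were 0.65 (SE 0.25) and 0.50 (SE 0.20), with edgeR unadjusted p values of 0.0271 and 0.0298. A separation of every P2KO library above every P2WT library was found for 3 tested members (0.859% of all genes tested). The third, Hist2h2bb, named after its values were seen, had a log2 fold change of 0.63 (edgeR unadjusted p 0.0784) and no unique 50-base stretch. Its groups were separated by a small margin, between P2KO replicate 5 at 1.208 CPM and P2WT replicate 3 at 1.201.

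**Figure D4:**
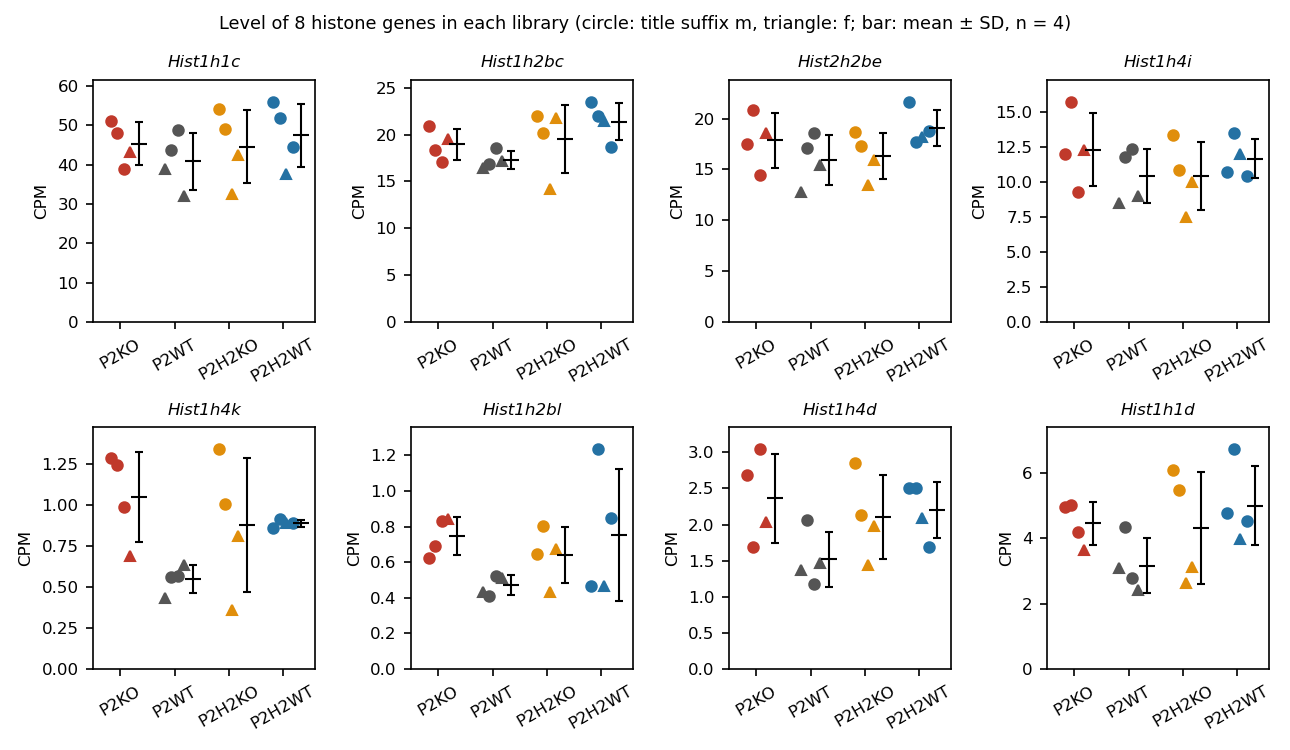
CPM of 8 histone genes in each library (y axes from 0, circles for title suffix m, triangles for f, bars for mean ± SD, n = 4). In the upper panels, the abundant genes, all groups overlap except P2WT and P2H2WT for Hist1h2bc, and in the lower panels Hist1h4k and Hist1h2bl are higher in every P2KO than in every P2WT library.

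The 5 most abundant genes had values between 0.15 and 0.25. Their median was 0.17, against 0.31 for the other 39 tested members, whose values lay on both sides of it, and the difference was not tested. Hist1h1c was at 51.3, 48.0, 39.0 and 43.2 CPM in P2KO and at 38.8, 43.7, 48.8 and 32.0 in P2WT, and the fitted log2 value was 0.16 (SE 0.13). The abundant H2B gene Hist1h2bc was at 20.9, 18.4, 17.1 and 19.5 CPM in P2KO and at 16.5, 16.8, 18.6 and 17.2 in P2WT, a log2 fold change of 0.15 (SE 0.079). Both overlapped between groups.

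Hist2h2be, Hist1h4i and Hist3h2ba had log2 fold changes of 0.17 (SE 0.14), 0.25 (SE 0.18) and 0.25 (SE 0.20). Among the other abundant members, Hist1h1e and Hist1h1b were both at 0.25, Hist3h2a at 0.14 and Hist1h2ak at 0.08. Median log2 fold changes by class were 0.40 for H3 (8 of 8 positive), 0.34 for H4 (10 of 10), 0.28 for H2B (11 of 12), 0.25 for H1 (5 of 5) and 0.12 for H2A (7 of 9). The 3 negative values belonged to Hist1h2bn (-0.01), Hist1h2ag (-0.08) and Hist1h2ae (-0.16).

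**Figure D5:**
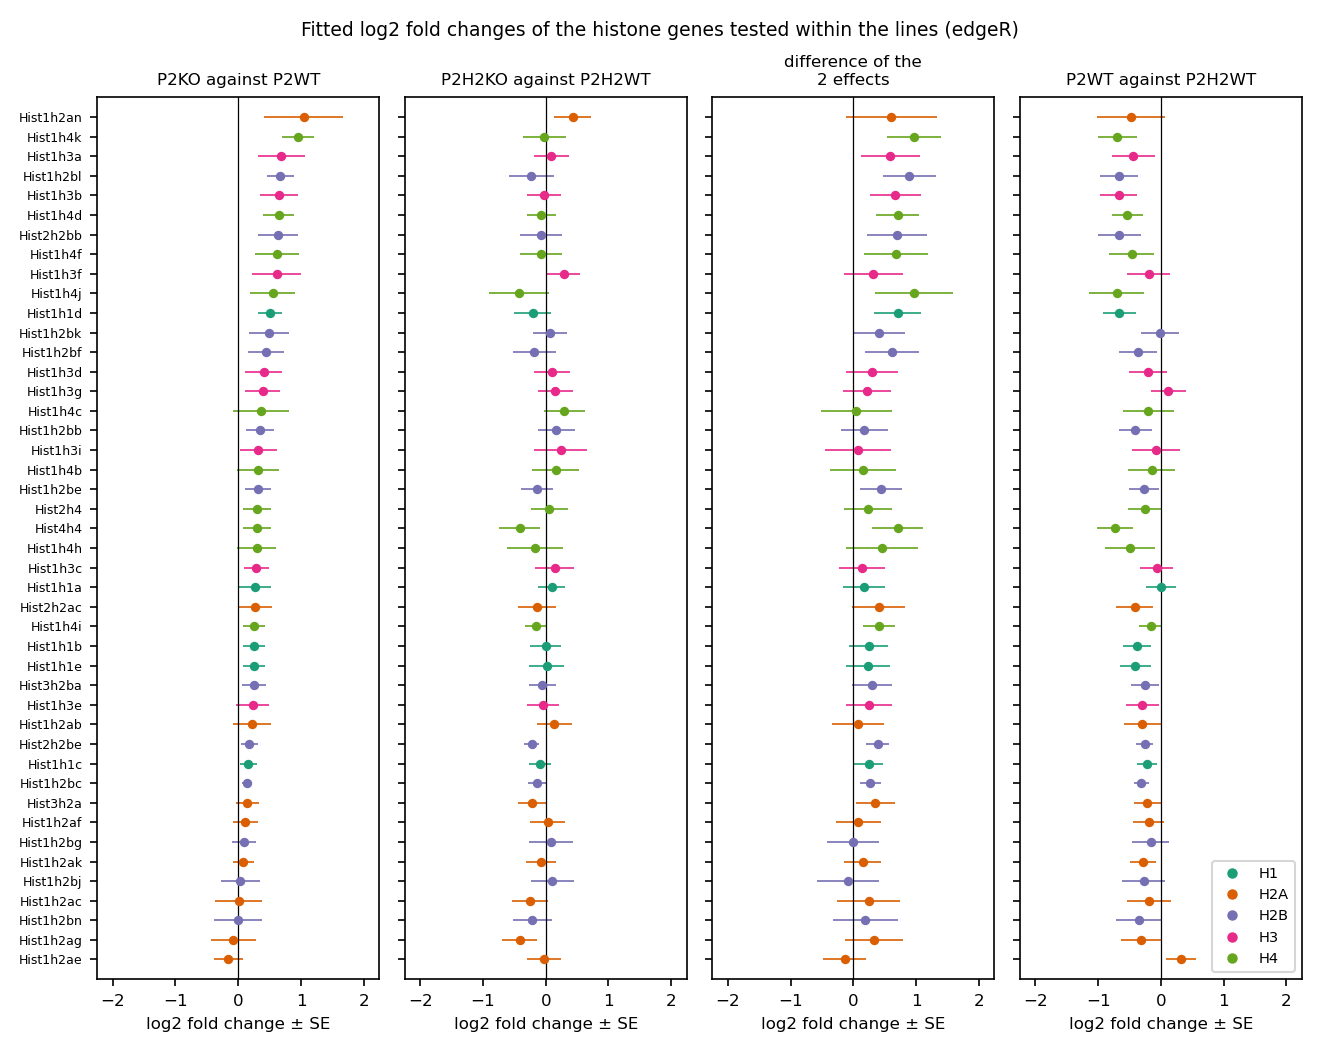
Fitted log2 fold changes (points) with standard errors (bars) of the 44 histone genes tested within the lines, in the 4 comparisons, coloured by class and ordered by the P2KO to P2WT value. Most points lie right of 0 in the first panel and left of 0 in the last, which share the P2WT libraries, and 3 genes tested over all 16 libraries alone are not drawn.

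Other lists of the histone supply had medians near 0 in this comparison. Replication-independent variants had a median log2 fold change of 0.02 (9 of 11 positive), with H3f3b at 0.02 and H2afz at 0.06. Single genes of this list ranged from -0.24 (H2afy2) to 0.36 (H1fx, SE 0.20), both named after their values were seen. Factors of histone message synthesis and processing had a median of 0.04 over 18 genes (15 positive), with Slbp, the stem-loop binding protein, at 0.09 and Srrt at 0.14. Histone chaperones had one of 0.06 over 20 genes (18 positive), with Rbbp4 at 0.07 and Ssrp1 at 0.05. None of these genes was called in the edgeR test.

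Genes of cell division had the same sign with smaller values, with a median of 0.08 over 27 S phase genes (27 positive) and of 0.09 over 20 mitosis genes (19 positive). None was called, and the P2KO sums overlapped those of P2WT, at 5901 to 8082 against 6571 to 7855 CPM for the S phase list. Rrm2 and Rrm1, which encode subunits of the enzyme that makes DNA precursors, were at 0.13 and 0.09, and the proliferation genes Mki67 and Top2a at 0.22 and 0.08. With the mean level of both lists as a covariate, the median of the histone genes was 0.33. Erythroid genes were positive in 12 of 12 with a median of 0.11, and the 3 tested RNAs without a poly(A) tail had a median of 0.71 and P2KO replicate 6 the highest sum; the part of either in the histone values was not tested.

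Libraries with the title suffix m and f were unevenly spread, m being the suffix of 3 libraries each in P2KO and P2H2WT and of 2 each in P2WT and P2H2KO. Among m libraries the histone sums were 148 to 177 CPM in P2KO (n = 3) and 152 to 157 in P2WT (n = 2), which overlap. The single f library of P2KO was at 157 CPM, above both f libraries of P2WT at 124 and 130. With the suffix as a covariate the median log2 fold change was 0.24, and 39 of 44 values were positive. The count of 4 members at an unadjusted p under 0.05 was not stable, at 2 without P2KO replicate 1, 7 without P2KO replicate 6 and 8 without P2WT replicate 3. The share of all genes in these fits is not given here, so such changes cannot be called particular to the histone genes.

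When HIF2α was labelled as missing too, in P2H2KO against P2H2WT, the histone genes had no common direction. Of 44 tested members 18 had positive and 26 negative values, where 50.5% of all 13435 genes tested were positive, and the median log2 fold change was -0.03 (0.0011 over all genes). In the edgeR test 0 members had an adjusted p under 0.05 (0.0744% of all genes), and DESeq2 gave 0 as well. No member had an unadjusted p under 0.05 either (2.63% of all genes).

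The summed level was 195 (replicate 11), 180 (12), 111 (15) and 151 (17) CPM in P2H2KO, and 185 (13), 189 (14), 147 (16) and 160 (18) in P2H2WT. P2H2KO thus held both the highest and the lowest library of the 16, and its mean of 159 ± 37.1 CPM (SD, n = 4) lay within the spread of P2H2WT at 170.1 ± 19.9. By class, P2H2KO against P2H2WT was at 60.9 ± 14.8 against 64.2 ± 10.6 CPM for H1, 15.5 ± 4.25 against 16.6 ± 2.43 for H2A and 57.0 ± 12.04 against 62.2 ± 5.47 for H2B. It was at 6.98 ± 1.69 against 6.65 ± 0.579 for H3 and 18.8 ± 5.14 against 20.4 ± 2.14 for H4.

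The smallest unadjusted p belonged to Hist2h2be, an H2B gene with a long annotated end, at 18.6, 17.3, 13.4 and 15.96 CPM in P2H2KO and 21.6, 17.7, 18.2 and 18.8 in P2H2WT. The groups overlapped, and the log2 fold change was -0.22 (SE 0.12, edgeR unadjusted p 0.0848). Hist1h2ag and Hist4h4 had log2 fold changes of -0.42 (SE 0.28) and -0.42 (SE 0.33), and Hist1h2an one of 0.43 (SE 0.29). All 5 of the most abundant genes had negative values, with a median of -0.13, Hist1h1c at -0.09 (SE 0.17) and Hist1h2bc at -0.13 (SE 0.14) among them. Hist1h4k and Hist1h2bl, the first 2 of the P2 comparison, were at -0.02 (SE 0.34) and -0.23 (SE 0.36).

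The direction of the median rested on single libraries. It was 0.13 without P2H2KO replicate 15, with 34 of 47 values positive, and -0.18 without P2H2KO replicate 11, with 11 of 45 positive. Leaving out P2H2WT replicate 14 gave 0.02, and with the suffix covariate it was 0.08. P2H2KO replicate 15 also had the lowest S phase sum, 5701 CPM against 5901 to 8082 elsewhere, and the lowest mitosis sum, 4786 CPM against 4848 to 8134. In this line S phase genes had a median log2 fold change of -0.08 (0 of 27 positive), mitosis genes one of -0.03 (3 of 20) and erythroid genes one of -0.17 (0 of 12). With the S phase and mitosis level as a covariate the histone median was 0.03.

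Among m libraries of this line the sums were 180 to 195 CPM in P2H2KO (n = 2) and 160 to 189 in P2H2WT (n = 3). The f libraries were at 111 and 151 CPM in P2H2KO, around the single f library of P2H2WT at 147. Replication-independent variants had a median log2 fold change of -0.03 (3 of 11 positive), factors of histone messages one of -0.02 (5 of 18) and chaperones one of -0.02 (5 of 20), with none called in the edgeR test.

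Whether the effects differ between the lines was tested directly over all 16 libraries, as the P2 effect minus the P2H2 effect, and no histone gene passed. Of 47 tested members 0 had an adjusted p under 0.05 (0% of all 14080 genes tested), with a smallest edgeR adjusted p of 0.999 and 0 calls by DESeq2. Values were positive for 43 of the 47, where 50.4% of all genes were, with a median log2 difference of 0.30 (0.0012 over all genes). This contrast holds the libraries of both comparisons above and adds no independent values. The signs of its members are not independent of each other either. Between replicates of a group, their median log2 CPM had an SD of 0.24.

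At an unadjusted p under 0.05 there were 2 members (1.51% of all genes). Hist1h2ah, an H2A gene, was at 0.404, 0.414, 0.355 and 0.460 CPM in P2KO, 0.252, 0.0751, 0.202 and 0.197 in P2WT, 0.173, 0.322, 0.215 and 0.270 in P2H2KO and 0.286, 0.558, 0.271 and 0.161 in P2H2WT. Its log2 difference was 1.52 (SE 0.53, edgeR unadjusted p 0.0114, adjusted p 0.999), from 120 counts over all libraries and a sequence that is mostly shared with other H2A genes. Hist1h4k had a log2 difference of 0.97 (SE 0.43, edgeR unadjusted p 0.0414), from 0.95 in the P2 line and -0.02 in the other. Its P2H2KO libraries were at 1.34, 1.01, 0.359 and 0.811 CPM and its P2H2WT libraries at 0.858, 0.916, 0.890 and 0.888, so that the P2H2KO values spread on both sides of their controls.

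Hist1h2bl and Hist2h2be followed at 0.89 (SE 0.43) and 0.39 (SE 0.19). By class the median log2 difference was 0.57 for H4 (10 of 10 positive), 0.33 for H2A (10 of 11), 0.30 for H2B (10 of 13), 0.28 for H3 (8 of 8) and 0.24 for H1 (5 of 5). Without P2H2KO replicate 15 the median over members was 0.14 with 35 of 49 positive, and without P2H2KO replicate 11 it was 0.45. With the suffix covariate it was 0.19 with 34 of 47 positive, and with the S phase and mitosis level 0.21. S phase genes had a median log2 difference of 0.14 (27 of 27 positive), mitosis genes one of 0.11 (18 of 20) and erythroid genes one of 0.23 (12 of 12). B lineage genes (0.39, 12 of 12 positive) and the 3 tested RNAs without a poly(A) tail (0.56, 3 of 3) had the same sign. Mature neutrophil genes (-0.20, 0 of 12 positive) and early granulocyte genes (-0.29, 1 of 7) had the opposite one. The part of these levels in the histone values was not tested.

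The control groups of the lines, P2WT and P2H2WT, were compared as a gauge of how far the lines themselves differ, and no histone gene passed the test. Of 47 tested members 3 had positive and 44 negative values, where 48.3% of all genes were positive, with a median log2 fold change of -0.30 (-0.0060 over all genes). In the edgeR test 0 members had an adjusted p under 0.05 (0.227% of all genes), with a smallest adjusted p of 0.349, and DESeq2 gave 0. At an unadjusted p under 0.05 there were 8 members, all lower in P2WT (10% of all genes). The P2WT libraries are the same 4 that served as controls in the P2 line, so the signs of these comparisons are tied to each other. Signs of single members are not independent here either, and their median log2 CPM had an SD of 0.24 between replicates.

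Hist1h2bc was at 16.5, 16.8, 18.6 and 17.2 CPM in P2WT replicates 10, 3, 4 and 7 and at 23.5, 22.0, 21.5 and 18.7 in P2H2WT replicates 13, 14, 16 and 18. The groups did not overlap, by a small margin between P2WT replicate 4 and P2H2WT replicate 18, and the log2 fold change was -0.31 (SE 0.12, edgeR unadjusted p 0.0199, adjusted p 0.349). All P2WT libraries were lower than all P2H2WT libraries for this gene and for Hist1h4k, 2 of the tested members (2.59% of all genes tested). The same held for Hist1h4m, which had too few counts to be tested. Hist1h4k was at -0.69 (SE 0.32) here.

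Hist4h4, the single member on chromosome 6, was at 0.684, 0.939, 0.808 and 0.632 CPM in P2WT and 1.32, 1.19, 0.851 and 1.74 in P2H2WT, a log2 fold change of -0.73 (SE 0.29). Hist1h3b, an H3 gene, was at 0.468, 0.563, 0.323 and 0.553 CPM in P2WT and 0.644, 0.996, 0.503 and 0.929 in P2H2WT, a log2 fold change of -0.67 (SE 0.29). Both overlapped between the groups. Hist1h1d had a log2 fold change of -0.66 (SE 0.26), Hist1h2bl one of -0.67 (SE 0.31) and Hist1h4d one of -0.53 (SE 0.25). The eighth gene, Hist1h2ai, named after its values were seen, was at -1.07 with 9.88% unique stretches.

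Among replication-independent variants 1 of 11 genes was called between the control groups, against 0.227% of all genes tested. At an unadjusted edgeR p under 0.05 there were 3, against 10% of all genes. H2afj, which encodes an H2A variant, was at 73.3 ± 3.16 CPM (SD, n = 4) in P2WT and 102 ± 14.6 in P2H2WT, which is -0.48 on the log2 scale (SE 0.090), with an edgeR adjusted p of 0.0435. Its values were 70.3 to 77.6 against 81.8 to 114 CPM, without overlap. The list as a whole had a median log2 fold change of -0.10 (1 of 11 positive). S phase genes (median -0.0025, 12 of 27 positive) and mitosis genes (0.0089, 11 of 20) had medians near 0, while those of erythroid genes (-0.19, 2 of 12 positive) and mature neutrophil genes (-0.18, 0 of 12) were negative. Lists of T and NK cell genes (-0.08, 4 of 10 positive) and of monocyte and macrophage genes (-0.10, 4 of 12) were negative too. The part of these levels in the histone values was not tested. Leaving out single libraries gave histone medians between -0.37 and -0.26, and the suffix covariate gave -0.21.

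Spread within the groups limited these tests for the abundant genes more than counting did. The variance of counts within groups was 33.9 times the Poisson value for Hist1h1c, from 18426 counts in all, and 13.1 times for Hist3h2ba. Over the 44 members tested its median was 2.27, and 29 of them exceeded 2. Hist1h2ah and Hist1h2ag were near the Poisson value at 0.902 and 1.11, so that counting noise made up most of their spread.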

How the data were processed

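RNA sequencing counts of 16 mouse libraries in 4 groups of 4 were used, grouped by library title. The authors deposited 2 tables of raw read counts per gene, 1 for each line, per the file headers, with 49585 genes each and no normalization. HTSeq and the build mm10 are named per the submitters' processing notes. The aligner, annotation release, use of strand, treatment of reads matching several genes and poly(A) selection are not given in the sources used here. Symbols from GENCODE M21 matched 49326 genes.

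Counts were tested with edgeR 4.0.16 (filterByExpr, TMM, robust quasi-likelihood fit, two-sided) over all genes, with Benjamini-Hochberg adjustment and a threshold of 0.05. Each line was fitted on its own 8 libraries, and the difference of effects and the control groups on all 16. Standard errors came from the F statistic. The procedure was tested on simulated data. Alternatives were RLE and upper-quartile factors, other filters, DESeq2 1.42.0, the title suffix, the S phase and mitosis level, the libraries fitted, and leaving out each library.

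The members, gene lists and tests were chosen with earlier results of these data known. Members named in full were those called in a comparison, the 4 with the smallest p in each, the 10 with the highest CPM and the highest per kilobase in each class, and from each list called genes and the 2 most abundant. Of 20 symbols listed as factors of histone messages 18 were matched.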

Additional observations from a re-analysis of the deposited data

Results flagged for a closer look

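In 2 of 100 groups of 4 libraries examined, 1 library lay far from the other 3 by Dixon's test at the 95% level, and chance gives about 1 in 20. Hist1h2ak was at 2.98 CPM in P2KO replicate 1, above the other P2KO libraries at 2.65 to 2.69. The summed level of the 17 H2B genes was 50.8 CPM in P2KO replicate 6, below the other P2KO libraries at 59.9 to 60.97.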

How the results depend on the processing

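No paired analysis was possible because no replicate number was shared between groups. No member was called under any alternative run, DESeq2 and the fits without single libraries included, and the smallest adjusted p was 0.0705, in P2WT against P2H2WT with the S phase and mitosis level as a covariate. Over fits that each left out 1 library, the median log2 fold change of the histone genes was 0.21 (without P2WT replicate 7) to 0.40 (without P2WT replicate 3) in P2KO against P2WT, -0.18 to 0.13 in P2H2KO against P2H2WT, 0.14 to 0.45 for the difference of effects and -0.37 to -0.26 in P2WT against P2H2WT. The 16 fold changes with the smallest p values within their comparisons kept their sign in all alternatives run. They were picked from these data for being large relative to their standard errors, so a stable sign was likely beforehand and says little. The other fold changes given in the text are not covered by this count. Members at an unadjusted p under 0.05 were less stable. Their number was 0 to 1 in the P2H2 line, where the 1 came without P2H2KO replicate 11. For the difference of effects it was 0 without P2H2WT replicate 14, and 6 without P2H2KO replicate 11 or 12. Between the control groups it was 2 without P2H2WT replicate 14, 3 without P2WT replicate 10 or 7, 5 without P2H2WT replicate 13 or 18, 5 with DESeq2, 3 with the title suffix as a covariate and 14 with the S phase and mitosis covariate. The share of all genes at that level in the same fits is not given here, so these changes cannot be called particular to the histone genes. In all comparisons 21 of the 68 members had too few counts to be tested.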

Other observations

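Marker lists of other cells had 0 genes called in the 4 comparisons by edgeR. In P2KO against P2WT the 10 T and NK cell genes had a median log2 fold change of -0.35 (0 positive, 4 at an unadjusted p under 0.05), and the 12 monocyte and macrophage genes one of -0.28 (0 positive, 5 at an unadjusted p under 0.05). Over all genes tested, 57.8% were positive and 3.49% had an unadjusted edgeR p under 0.05. The 12 mature neutrophil genes had a median of -0.01, the 7 early granulocyte genes one of -0.09, the 12 B lineage genes one of 0.01 and the 9 stem and progenitor genes one of -0.03.

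In P2H2KO against P2H2WT mature neutrophil genes had a median of 0.18 (12 of 12 positive), early granulocyte genes one of 0.19 (7 of 7), and B lineage genes one of -0.34 (0 of 12 positive). T and NK cell genes had a median of -0.11, and monocyte and macrophage genes one of -0.06 (5 of 12 positive). Stem and progenitor genes had a median of 0.16, and the 3 tested RNAs without a poly(A) tail one of 0.09. At an edgeR unadjusted p under 0.05 were 5 monocyte and macrophage genes, 1 mature neutrophil gene and 1 RNA without a poly(A) tail (2.63% of all genes).

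For the difference of effects T and NK cell genes had a median of -0.26 (1 of 10 positive), monocyte and macrophage genes one of -0.18 (5 of 12) and stem and progenitor genes one of -0.08 (4 of 9). In P2WT against P2H2WT early granulocyte genes had a median of 0.07 (4 of 7 positive), B lineage genes one of 0.02 (6 of 12), stem and progenitor genes one of 0.04 (5 of 9) and the 3 tested RNAs without a poly(A) tail one of -0.22 (1 of 3).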
